A study of Mus musculus with 12 samples.

Results

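The 44 genes described here encode the proteins that bring secretory and membrane proteins into the endoplasmic reticulum (ER), fold them there, watch over their folding and remove those that fail. They were chosen by name from the 22561 genes of the count table, with earlier results of these data known. By role they comprise 3 sensors and transcription factors of the unfolded protein response (UPR), 11 chaperones and co-chaperones, 4 disulfide isomerases, 15 genes of targeting, translocation and signal peptide cleavage, 4 subunits of the oligosaccharyltransferase, 5 genes of ER-associated degradation (ERAD) and 2 genes of the COPII coat. The filter on low counts kept 42 of them, and the exceptions were Ern1 and Sec24d.

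Proteins that carry a signal peptide are recognised by the signal recognition particle, enter the ER through the Sec61 channel, lose the signal peptide to signal peptidase and receive N-linked sugars from the oligosaccharyltransferase. Chaperones such as BiP (Hspa5) and disulfide isomerases then fold them, and ERAD returns misfolded chains to the cytosol for destruction. When unfolded chains accumulate, the sensors IRE1α (Ern1), ATF6 and PERK switch on the UPR, in which IRE1α splices Xbp1 mRNA, and XBP1 and ATF6 raise the genes of folding and secretion. Plasma cells, the antibody-secreting end stage of the B cell lineage, depend on this machinery and on XBP1.

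RNA was measured in splenic follicular (FO) B cells that were sorted by FACS from C57BL6 mice aged 10 weeks. There were 4 groups of 3 samples: unstimulated FO B cells, and cells that had received IFNα (a type I interferon), CpG (a DNA ligand of TLR9) or CpG + IFNα for 12 h. The comparisons ask how each stimulus, and the pair that leads FO B cells toward the plasma cell fate, changed the secretory machinery before plasma cells appear. Whether unstimulated cells were also kept in culture is not stated, so that stimulation and culture cannot be told apart in a comparison with them, and nothing says that the samples of a group came from separate mice, so that p-values measure the spread between these samples, which may be technical. Each value below is a level in counts of unique molecular identifiers (UMIs), scaled by library size (CPM) and normalized between samples, and is relative to all RNA of that sample. In such bulk samples fewer cells of a type and less RNA per cell cannot be told apart. Reads come from the 3′ end of transcripts, so that spliced and unspliced Xbp1 were counted as 1 gene.

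The samples held between 922450 and 2923865 UMI counts. The 5 B cell markers summed to between 5699 and 6631 CPM in unstimulated samples, to between 5954 and 6672 CPM with IFNα, to between 1267 and 1392 CPM with CpG and to between 1104 and 1256 CPM with CpG + IFNα, so that they fell where most members rose. The 3 markers of follicular B cells (Fcer2a, Cr2 and Ighd) had a lower sum with IFNα too, through Fcer2a (1229, 1359 and 1257 raw counts in unstimulated samples, 300, 323 and 305 with IFNα) and Cr2 (459, 330 and 529 against 98, 94 and 116) and not Ighd (3161, 3039 and 3271 against 3194, 4610 and 3884). The sums lay between 4414 and 5125 CPM in unstimulated samples, 2975 and 3365 CPM with IFNα, 939 and 1102 CPM with CpG and 868 and 946 CPM with CpG + IFNα. The 3 plasma cell markers in the table (Sdc1, Jchain and Prdm1) summed to between 24.9 and 32.6 CPM in unstimulated samples, to between 27.2 and 34.8 CPM with IFNα and to at most 5.84 CPM in the 6 samples with CpG. The lower sum with CpG was mainly through Sdc1, with 22, 12 and 27 raw counts in unstimulated samples. Sdc1 had 2, 3 and 4 counts with CpG and 3, 2 and 2 with CpG + IFNα. The counts of Prdm1 were low, at 6, 1 and 7 in unstimulated samples and 4, 4 and 7 with CpG. With CpG + IFNα they were 6, 8 and 6. Jchain had at most 10 counts in any sample. Markers of T and NK cells were at 0 or at most at 1.82 CPM. Myeloid markers reached 19.5 CPM in unstimulated samples and at most 1.59 CPM in the others. Erythroid markers lay between 1.05 and 261 CPM, and in each group sample 1 was highest and sample 3 lowest. The part of these markers in the results below was not tested.

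ATF6 and XBP1 act through short promoter elements, and the promoter sequences of the members show which carry one. RefSeq promoters (250 bases before to 50 after the start site, GRCm38.p6) were found for 35 of the 44 members and searched on both strands. The ER stress response element (ERSE, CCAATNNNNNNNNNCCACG) was in 8 of the 35 (22.9%), against 37 of 27025 genes with a promoter in the table (0.137%). Its carriers were Hspa5, Hsp90b1, Calr, Canx, Dnajc3, Creld2, Pdia6 and Syvn1, and Hsp90b1 had it at 2 places. ERSE-II (ATTGGNCCACG) was found in Dnajb11 and Herpud1 and in 0.0444% of all genes, and the core of the UPR element (TGACGTGG) in Sec24d and in 0.714% of all genes. The cAMP response element (TGACGTCA) was in 0 members and in 2.03% of all genes. Shown here are sites of members that moved in opposite directions after stimulation, read 5′ to 3′ on the strand of the gene, with both conserved parts of the element in capitals (CGTGG followed by ATTGG is an ERSE on the other strand).
Hspa5 (chr2:34772020-34772048, + strand): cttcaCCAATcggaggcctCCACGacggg
Canx (chr11:50325795-50325823, - strand): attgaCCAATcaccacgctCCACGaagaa
Creld2 (chr15:88819515-88819543, + strand): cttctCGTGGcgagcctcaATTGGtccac
Pdia6 (chr12:17266486-17266514, + strand): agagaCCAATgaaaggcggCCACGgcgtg
Dnajc3 (chr14:118937822-118937850, + strand): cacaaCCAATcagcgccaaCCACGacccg
Syvn1 (chr19:6046527-6046555, + strand): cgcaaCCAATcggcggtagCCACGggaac
Herpud1 (ERSE-II, chr8:94386372-94386392, + strand): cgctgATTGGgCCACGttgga

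Members with the same element did not share a direction. Of the 8 ERSE carriers, 5 rose with CpG (Hspa5, Hsp90b1, Canx, Creld2 and Pdia6), Syvn1 fell, and Calr and Dnajc3 did not pass the test, where 36.5% of all genes tested rose and 38.4% fell. CpG + IFNα raised 4 and lowered 3 of them against unstimulated cells (37.6% and 38.8% of all genes), and IFNα alone raised 1 and lowered 2 (12.4% and 11.9% of all genes). The numbers lowered by CpG + IFNα and raised by IFNα were near the shares over all genes, and 8 genes are too few to read more from them. Between CpG + IFNα and CpG, 0 carriers rose by edgeR or DESeq2 (1 at an unadjusted p under 0.05), and Dnajc3 was the 1 that fell (6.54% and 8.83% of all genes). A match describes the letters of the promoter and does not show that a factor was bound.

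CpG raised most of the machinery, IFNα alone lowered more members than it raised, and some members were lower with CpG + IFNα than with CpG. A member passed when its adjusted p was under 0.1 (edgeR quasi-likelihood test with Benjamini-Hochberg adjustment over 9431 genes). Against unstimulated cells, CpG raised 26 of 42 members and lowered 7, where 36.5% of all genes tested rose and 38.4% fell. The members' median log2 fold change was 0.50, against -0.03 for all genes (a log2 fold change of 1 is a change of 2-fold). CpG + IFNα raised 23 and lowered 10 (37.6% and 38.8% of all genes), with a median of 0.39 among the members and -0.01 among all genes. IFNα alone raised 4 and lowered 9 (12.4% and 11.9% of all genes), with medians of -0.14 and -0.00. Without unstimulated sample 1, unstimulated sample 3 or IFNα sample 3 the number raised by IFNα was 2, and without unstimulated sample 3 or IFNα sample 2 the number lowered was 5. Against CpG, CpG + IFNα raised 1 member and lowered 10 (6.54% and 8.83% of all genes), with medians of -0.15 and -0.04. Without CpG + IFNα sample 2 the number lowered was 3 and without CpG sample 3 it was 6, and 3 of the 10 falls held whichever sample was left out. The comparisons with unstimulated cells share those 3 samples and are given side by side only.

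**Figure D1:**
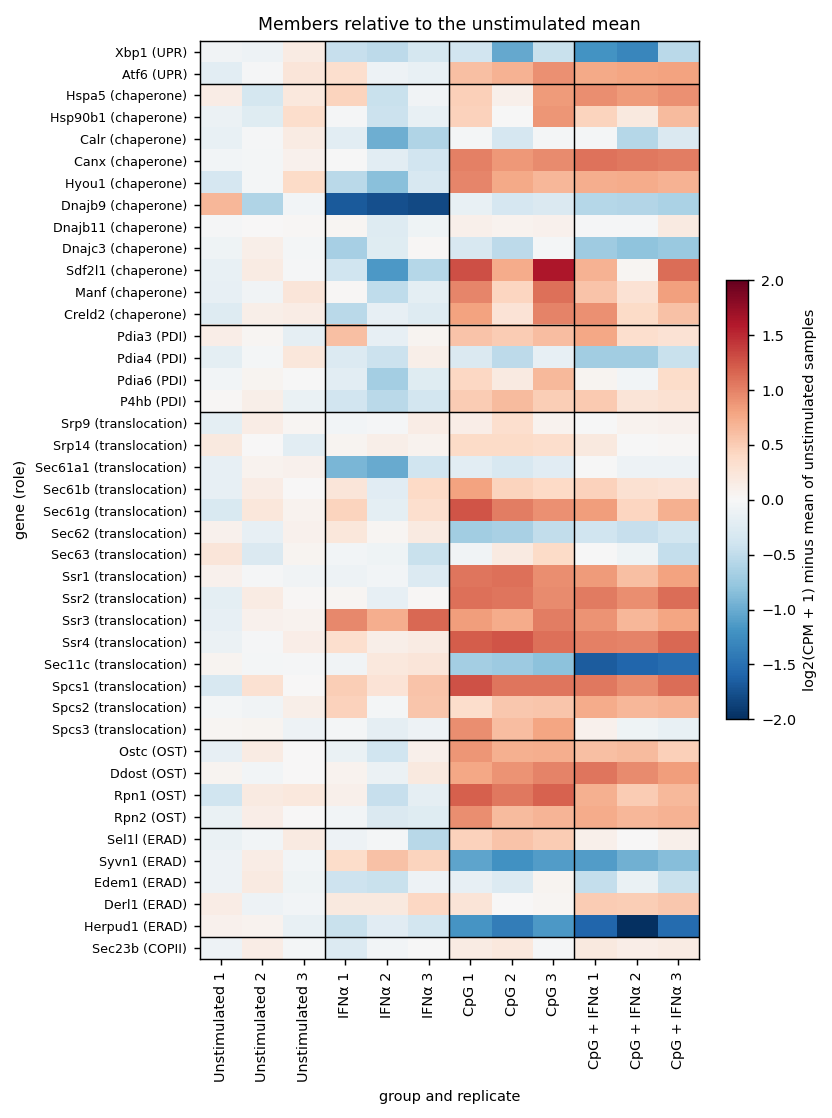
Level of the 42 tested members in each of the 12 samples, as log2(CPM + 1) minus the mean of the 3 unstimulated samples, with genes in rows by role and samples in columns by group. Most rows of translocation and oligosaccharyltransferase (OST) genes are red in the 6 samples with CpG, while Xbp1, Sec11c, Syvn1 and Herpud1 are blue there.

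In all, the 44 members held 0.594% ± 0.0348 of all UMI counts in unstimulated samples (SD, n = 3), 0.525% ± 0.0489 in IFNα samples, 0.787% ± 0.0688 in CpG samples and 0.759% ± 0.0458 in samples of CpG + IFNα. Every sample with CpG stood above every sample without it. Oligosaccharyltransferase subunits rose from 0.0424% ± 0.00401 in unstimulated samples to 0.0761% ± 0.00306 with CpG, and the translocation genes from 0.159% ± 0.00460 to 0.232% ± 0.00393. The share of the ERAD genes went the other way, from 0.0521% ± 0.00216 in unstimulated samples to 0.0364% ± 0.00165 with CpG and 0.0352% ± 0.00188 with CpG + IFNα. With CpG this was through Herpud1 (mean 166 to 69.9 CPM) and Syvn1 (140 to 63.2 CPM). Sel1l rose there (51.3 to 73.4 CPM), and Derl1 and Edem1 did not pass. These shares are descriptions with no test.

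**Figure D2:**
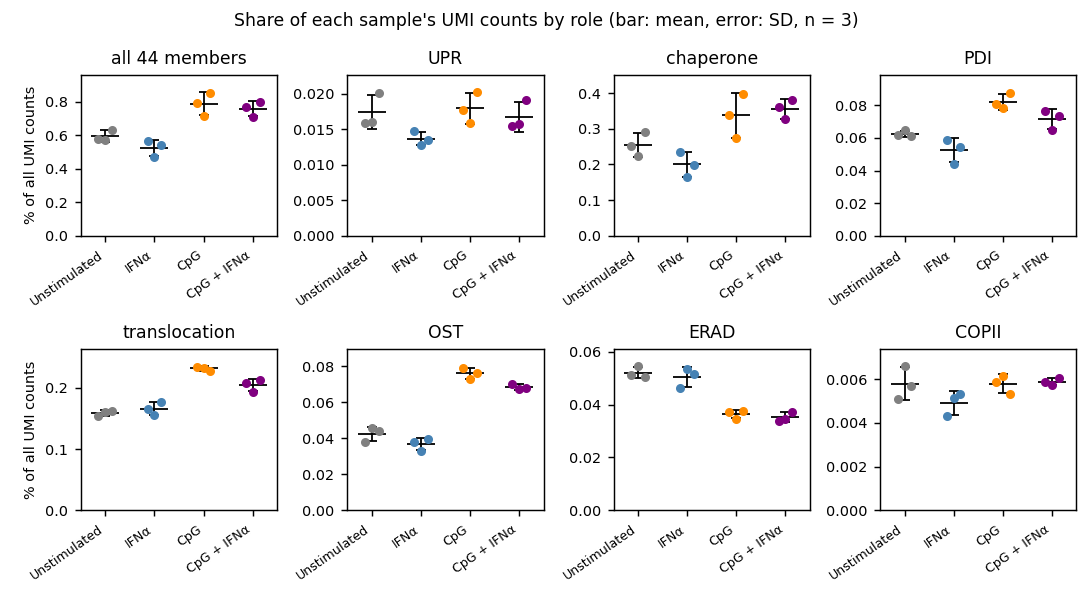
Percent of all UMI counts held by the 44 members and by each role, with 1 point per sample, a bar at the mean and an error bar of 1 SD (n = 3). The 6 samples with CpG lie above the 6 without it for all members together (means 0.787% and 0.759% against 0.594% and 0.525%). For ERAD the samples with CpG lie below those without it, mainly through Herpud1 and Syvn1.

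The transcription factor gene of the response and the sensor gene moved apart. Xbp1, whose spliced mRNA encodes the factor XBP1, was at 96.5, 94.1 and 113 CPM in the unstimulated samples, at 72.6, 69.9 and 78.6 CPM with IFNα, at 76.7, 49.2 and 73.9 CPM with CpG and at 43.6, 40.4 and 68.9 CPM with CpG + IFNα. All 9 stimulated samples were below every unstimulated sample. Xbp1 fell by 0.46 on the log2 scale with IFNα (SE 0.18, adjusted p = 0.0637), by 0.59 with CpG (SE 0.17, adjusted p = 0.003) and by 1.01 with CpG + IFNα (SE 0.17, adjusted p = 4.74e-06, edgeR). Between CpG + IFNα and CpG the log2 fold change was -0.42 (SE 0.17), which did not pass (adjusted p = 0.12), and sample 3 of CpG + IFNα lay inside the range of CpG. Without that sample it was -0.69 and passed (adjusted p = 0.00638), as it did without CpG sample 2 (-0.58, adjusted p = 0.0291). With replicate number as a block it passed too (-0.40, adjusted p = 0.0659, edgeR). The IFNα call was lost without unstimulated sample 3 or without IFNα sample 1 or 2, when the log2 fold change lay between -0.45 and -0.40 (adjusted p up to 0.189).

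Atf6, which encodes the membrane-bound sensor that is cleaved to a transcription factor, was at 56.4, 64.2 and 77.7 CPM in unstimulated samples and at 82.7, 60.8 and 58.8 CPM with IFNα. With CpG it was at 100, 107 and 124 CPM and with CpG + IFNα at 112, 114 and 115 CPM. Every sample with CpG was above every sample without it. It rose by a log2 fold change of 0.74 with CpG (SE 0.15, adjusted p = 4.78e-05) and of 0.77 with CpG + IFNα (SE 0.14, adjusted p = 1.79e-05, edgeR). Ern1, the gene of IRE1α, was near the limit of detection. Its UMI counts were 7, 0 and 6 in unstimulated samples, 3, 2 and 2 with IFNα, 3, 3 and 6 with CpG and 5, 12 and 7 with CpG + IFNα. Without the filter its adjusted p lay between 0.408 and 1 in the 5 comparisons (edgeR).

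Among the 11 chaperones and co-chaperones, CpG raised 7 and lowered 1 (36.5% and 38.4% of all genes), CpG + IFNα raised 7 and lowered 3 (37.6% and 38.8%), and IFNα alone lowered 4 (11.9% of all genes) and raised 0 (12.4% of all genes; 0 also at an unadjusted p under 0.05 and by DESeq2, as by edgeR). Hspa5, the gene of BiP and a common marker of ER load, was at 842, 594 and 882 CPM in unstimulated samples, at 1034, 558 and 729 CPM with IFNα, at 1062, 813 and 1379 CPM with CpG and at 1454, 1373 and 1441 CPM with CpG + IFNα. The 3 samples of CpG + IFNα were close together and above all others except that CpG sample 3 lay among them, while the CpG samples overlapped the unstimulated ones. Hspa5 rose with CpG (log2 fold change 0.49, SE 0.17, adjusted p = 0.0104) and with CpG + IFNα (0.88, SE 0.17, adjusted p = 2.38e-05, edgeR). The CpG call rested on CpG sample 3, without which the log2 fold change was 0.30 (adjusted p = 0.125), and the difference between CpG + IFNα and CpG did not pass (0.39, SE 0.16, adjusted p = 0.132). The call on that difference depended on the settings. It passed without a filter on low counts (0.45, adjusted p = 0.00401) and with only those groups in the fit (0.42, adjusted p = 0.0192, edgeR). It also passed with replicate number as a block (0.42, adjusted p = 0.0142) and without CpG sample 3 (0.60, adjusted p = 0.0259, edgeR). It did not pass by DESeq2 (0.41, adjusted p = 0.482) or without CpG sample 2 (0.22, adjusted p = 0.537).

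Canx, the gene of calnexin, which holds newly glycosylated chains at the membrane, had the smallest adjusted p of any member raised by CpG + IFNα. It was at 275, 277 and 303 CPM in unstimulated samples, at 282, 246 and 219 CPM with IFNα, at 574, 519 and 546 CPM with CpG and at 608, 593 and 577 CPM with CpG + IFNα. The 6 samples with CpG were all above the 6 without it. Its log2 fold change was 0.94 with CpG (SE 0.11, adjusted p = 5.02e-09) and 1.06 with CpG + IFNα (SE 0.11, adjusted p = 3.06e-10, edgeR).

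Calr, the gene of calreticulin, the soluble counterpart of calnexin, behaved differently. It was at 485, 527 and 601 CPM in unstimulated samples, at 462, 273 and 353 CPM with IFNα, at 519, 426 and 523 CPM with CpG and at 521, 361 and 439 CPM with CpG + IFNα. With IFNα all samples were below the unstimulated ones, and the log2 fold change was -0.58 (SE 0.15, adjusted p = 0.00393, edgeR). It did not pass with CpG (-0.14, adjusted p = 0.401), and with CpG + IFNα it fell by 0.29 (adjusted p = 0.0667), a call that was lost when any of 6 samples was left out (adjusted p up to 0.419).

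Dnajb9, the gene of ERdj4, an ER partner of BiP, had the largest fall of any member with IFNα. It was at 174, 71.7 and 105 CPM in unstimulated samples and at 33.3, 31.6 and 30.5 CPM with IFNα. With CpG it was at 98.8, 86.2 and 89.9 CPM and with CpG + IFNα at 73.6, 72.8 and 70.4 CPM. The 3 IFNα samples lay far below all others, and the unstimulated samples were widely spread. Its log2 fold change with IFNα was -1.89 (SE 0.21, adjusted p = 1.16e-08, edgeR), a call that held whichever sample was left out. The smaller falls with CpG (-0.36, adjusted p = 0.064) and CpG + IFNα (-0.71, adjusted p = 0.000602) rested on unstimulated sample 1, without which they were 0.06 (adjusted p = 0.762) and -0.29 (adjusted p = 0.109). The CpG call was also lost without CpG sample 2 or CpG sample 3.

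Sdf2l1, which encodes a partner of ERdj3 in the BiP cycle, was at 29.1, 36.4 and 31.8 CPM in unstimulated samples, at 24.2, 13.99 and 21.4 CPM with IFNα, at 80.4, 54.9 and 101 CPM with CpG and at 52.9, 33.1 and 71.4 CPM with CpG + IFNα. It had the largest rise of any member with CpG (log2 fold change 1.31, SE 0.24, adjusted p = 1.59e-05), and it rose less with CpG + IFNα (0.67, SE 0.25, adjusted p = 0.0181, edgeR). The latter call was lost without CpG + IFNα sample 3 (0.40, adjusted p = 0.156), and its fall with IFNα (-0.75, adjusted p = 0.0962) was lost when any of 5 samples was left out (adjusted p up to 0.333).

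Manf and Creld2, which encode small ER proteins released under stress, and Hyou1, the gene of a nucleotide exchange factor of BiP, rose with CpG by log2 fold changes of 0.87, 0.74 and 0.78 and with CpG + IFNα by 0.56, 0.63 and 0.70, each without overlap of the groups. Manf shares exons with Rbm15b on the same strand, and reads in the shared part may belong to either gene. Hyou1 fell by 0.62 with IFNα (adjusted p = 0.0315), a call that was lost without unstimulated sample 3 (-0.41) or IFNα sample 2 (-0.45). Hsp90b1, the gene of GRP94, rose by 0.47 with CpG (adjusted p = 0.0104) and 0.41 with CpG + IFNα (adjusted p = 0.0238), with overlap of the groups in both cases. Without CpG sample 3 its CpG value was 0.25 (adjusted p = 0.174), and without unstimulated sample 2 or CpG + IFNα sample 3 the other was 0.32 (adjusted p up to 0.107).

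Dnajc3, which encodes the co-chaperone P58IPK, was at 76.4, 87.7 and 78.5 CPM in unstimulated samples, at 50.4, 68.1 and 81.7 CPM with IFNα, at 64.5, 55.6 and 78.4 CPM with CpG and at 49.1, 45.9 and 47.8 CPM with CpG + IFNα. The samples of CpG + IFNα were below all 9 others. It fell with CpG + IFNα against unstimulated cells (log2 fold change -0.76, SE 0.16, adjusted p = 8.86e-05, edgeR) and passed in neither single stimulus. Dnajb11, the gene of ERdj3, lay between 77.8 and 105 CPM in all 12 samples and passed in 0 of 5 comparisons, by edgeR, by DESeq2 and at an unadjusted p under 0.05.

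**Figure D3:**
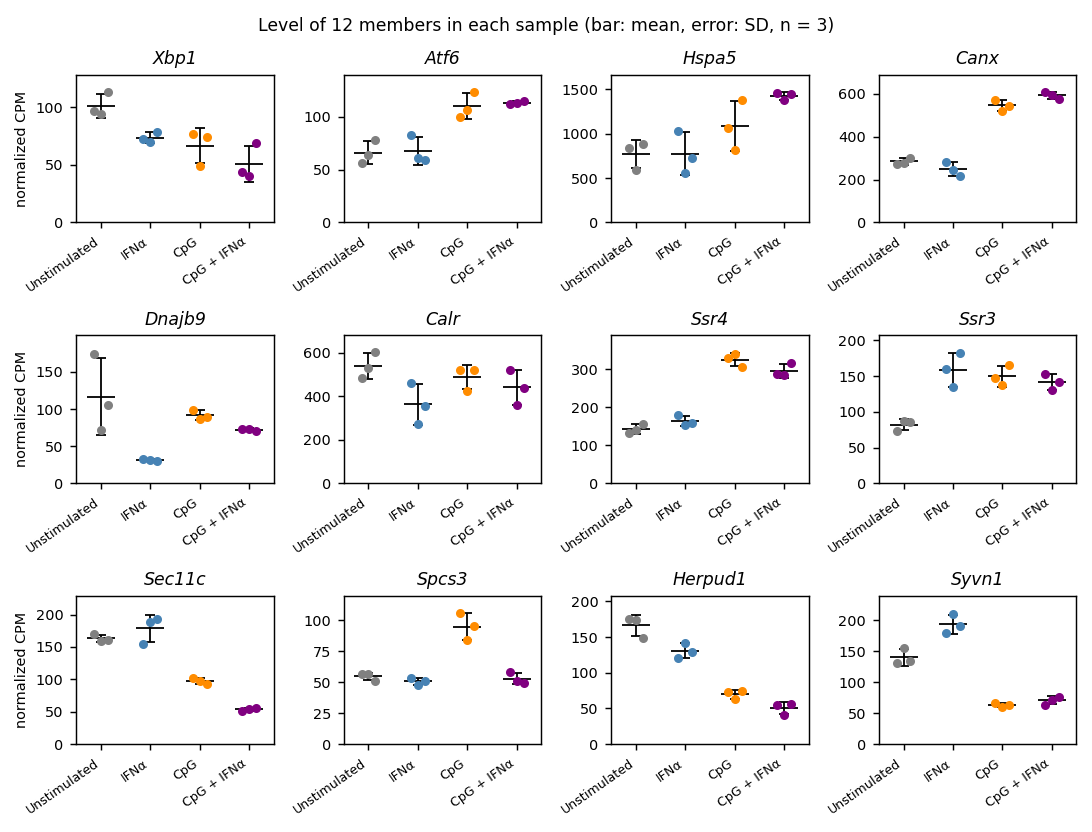
Normalized CPM of 12 members in each sample, with 1 point per sample, a bar at the mean and an error bar of 1 SD (n = 3), and each vertical axis starting at 0. Canx and Ssr4 are higher in all samples with CpG, Dnajb9 is lowest in the 3 IFNα samples (30.5 to 33.3 CPM), and Sec11c and Spcs3 are lower with CpG + IFNα than with CpG.

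Of the 4 disulfide isomerases, which form and rearrange disulfide bonds, CpG raised 3 and lowered 1 (36.5% and 38.4% of all genes), CpG + IFNα raised 2 and lowered 1 (37.6% and 38.8%), and IFNα alone lowered 2 (11.9%). P4hb, the gene of protein disulfide isomerase, was at 167, 180 and 151 CPM in unstimulated samples, at 127, 114 and 128 CPM with IFNα, at 235, 257 and 234 CPM with CpG and at 238, 199 and 205 CPM with CpG + IFNα. The IFNα samples were below the unstimulated ones and the 6 samples with CpG above them. Its log2 fold change was -0.43 with IFNα (SE 0.13, adjusted p = 0.0123), 0.54 with CpG (SE 0.12, adjusted p = 0.000124) and 0.37 with CpG + IFNα (SE 0.12, adjusted p = 0.00588, edgeR).

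Pdia3, the isomerase that works with calnexin and calreticulin, rose by 0.56 with CpG and by 0.47 with CpG + IFNα, and did not pass with IFNα (0.17, adjusted p = 0.49). Pdia6 rose by 0.44 with CpG (adjusted p = 0.00542) and fell by 0.38 with IFNα (adjusted p = 0.0733), the latter lost when any of 4 samples was left out (adjusted p up to 0.345). Pdia4 was the isomerase that fell, by 0.32 with CpG (adjusted p = 0.0621) and by 0.63 with CpG + IFNα (adjusted p = 0.000538). Its CpG call was lost when any of 3 samples was left out (adjusted p up to 0.296).

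Among the 15 genes of targeting, translocation and signal peptide cleavage, CpG raised 10 and lowered 2 (36.5% and 38.4% of all genes), CpG + IFNα raised 8 and lowered 2 (37.6% and 38.8%), and IFNα alone raised 3 and lowered 1 (12.4% and 11.9%). All 4 subunits of the translocon-associated protein complex, which sits beside Sec61 and assists the entry of some chains, rose in both. Ssr4 was at 131, 140 and 156 CPM in unstimulated samples, at 180, 154 and 159 CPM with IFNα, at 330, 340 and 306 CPM with CpG and at 286, 285 and 317 CPM with CpG + IFNα. Ssr1 was at 196, 182 and 175 CPM in unstimulated samples, at 171, 176 and 152 CPM with IFNα, at 387, 396 and 352 CPM with CpG and at 332, 280 and 321 CPM with CpG + IFNα. For both genes the 6 samples with CpG were above the 6 without it. The log2 fold change of Ssr4 was 1.19 with CpG (SE 0.12, adjusted p = 1.01e-10) and 1.05 with CpG + IFNα (SE 0.12, adjusted p = 1.11e-09), and that of Ssr1 was 1.04 (SE 0.11, adjusted p = 1.27e-09) and 0.75 (SE 0.11, adjusted p = 5.75e-07, edgeR). Ssr2 was at 66.4, 85.6 and 76.8 CPM in unstimulated samples, at 77.7, 67.5 and 77.1 CPM with IFNα, at 164, 160 and 146 CPM with CpG and at 158, 145 and 165 CPM with CpG + IFNα, and its log2 fold changes with CpG and CpG + IFNα were 1.04 and 1.03 (SE 0.13 each, adjusted p = 1.49e-08 and 1.19e-08).

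Ssr3 was the subunit that IFNα alone also raised. It was at 72.8, 86.6 and 85.6 CPM in unstimulated samples, at 159, 135 and 182 CPM with IFNα, at 147, 137 and 166 CPM with CpG and at 153, 130 and 142 CPM with CpG + IFNα. All 9 stimulated samples were above the unstimulated ones, and the 3 stimulated groups overlapped each other. The log2 fold change was 0.96 with IFNα (SE 0.14, adjusted p = 2.96e-06), 0.88 with CpG (SE 0.14, adjusted p = 1.19e-06) and 0.79 with CpG + IFNα (SE 0.14, adjusted p = 5.6e-06, edgeR).

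The Sec61 channel genes did not move together. Sec61a1, the gene of the pore-forming subunit, was at 40.04, 47.1 and 47.7 CPM in unstimulated samples, at 23.2, 21.9 and 33.6 CPM with IFNα, at 38.7, 35.6 and 37.9 CPM with CpG and at 44.7, 41.7 and 41.6 CPM with CpG + IFNα. The IFNα samples were the 3 lowest of the 12. It fell with IFNα (log2 fold change -0.78, SE 0.20, adjusted p = 0.00375, edgeR) and passed neither with CpG (-0.26, adjusted p = 0.193) nor with CpG + IFNα (-0.07, adjusted p = 0.705). The small subunits Sec61b and Sec61g rose with CpG by 0.56 (adjusted p = 0.000805) and 1.08 (adjusted p = 2.22e-06) and with CpG + IFNα by 0.35 (adjusted p = 0.0277) and 0.65 (adjusted p = 0.00157). The call of Sec61b with CpG + IFNα was lost without unstimulated sample 1 (0.29, adjusted p = 0.107).

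Sec62 and Sec63 encode partners of Sec61 in the entry of short or finished chains. Sec62 was at 161, 136 and 161 CPM in unstimulated samples, at 178, 156 and 172 CPM with IFNα, at 93.3, 96.9 and 108 CPM with CpG and at 116, 110 and 118 CPM with CpG + IFNα. The 6 samples with CpG were the 6 lowest. It fell by 0.61 on the log2 scale with CpG (SE 0.12, adjusted p = 4.21e-05) and by 0.42 with CpG + IFNα (SE 0.12, adjusted p = 0.00205, edgeR). Sec63 lay between 52.4 and 95.4 CPM and passed in 0 of 5 comparisons by edgeR and DESeq2 (1 at an unadjusted p under 0.05). Of the signal recognition particle, Srp9 lay between 66.4 and 95.5 CPM and passed in 0 of 5 comparisons by edgeR, DESeq2 or an unadjusted p under 0.05. Srp14 rose by 0.36 with CpG (adjusted p = 0.00869), a call that was lost without unstimulated sample 3 (0.24, adjusted p = 0.123).

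The signal peptidase genes split as well. Spcs1, the gene of an accessory subunit, was at 57.3, 88.8 and 72.4 CPM in unstimulated samples, at 101, 87.0 and 107 CPM with IFNα, at 174, 152 and 152 CPM with CpG and at 150, 138 and 156 CPM with CpG + IFNα. Spcs2, the gene of another accessory subunit, was at 136, 134 and 153 CPM in unstimulated samples, at 194, 137 and 206 CPM with IFNα, at 179, 206 and 207 CPM with CpG and at 236, 224 and 229 CPM with CpG + IFNα. In both genes the samples with CpG were above the unstimulated samples, whereas the IFNα samples overlapped them. Spcs1 rose with CpG and CpG + IFNα by 1.14 and 1.03 (SE 0.14 each), and Spcs2 by 0.48 and 0.70 (SE 0.13 each, adjusted p = 0.00175 and 1.61e-05, edgeR). With IFNα the values were 0.43 for Spcs1 (adjusted p = 0.0407) and 0.33 for Spcs2 (adjusted p = 0.0926), calls that were lost when any of 3 and any of 5 samples were left out (adjusted p up to 0.259 and 0.389).

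Sec11c, the gene of a catalytic subunit of signal peptidase, fell stepwise. It was at 169, 159 and 161 CPM in unstimulated samples, at 154, 188 and 194 CPM with IFNα, at 102, 97.7 and 92.4 CPM with CpG and at 50.7, 53.8 and 56.0 CPM with CpG + IFNα. The CpG samples were below all samples without CpG, and the CpG + IFNα samples were below all CpG samples. Its log2 fold change was -0.75 with CpG (SE 0.12, adjusted p = 1.91e-06) and -1.61 with CpG + IFNα (SE 0.13, adjusted p = 3.55e-13, edgeR), the smallest adjusted p of any member in any comparison. Spcs3, which encodes a further subunit of the complex, was at 56.4, 56.7 and 51.2 CPM in unstimulated samples, at 53.5, 48.0 and 51.1 CPM with IFNα, at 106, 84.1 and 95.4 CPM with CpG and at 58.4, 51.4 and 49.3 CPM with CpG + IFNα. The 3 CpG samples stood above the 9 others, which overlapped. Spcs3 rose by 0.80 with CpG (SE 0.15, adjusted p = 1.24e-05), and its value with CpG + IFNα was -0.05 (SE 0.15, adjusted p = 0.784).

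The 4 oligosaccharyltransferase subunits all rose with CpG and with CpG + IFNα, where 36.5% and 37.6% of all genes rose. With IFNα alone 0 of 4 passed by edgeR, DESeq2 or an unadjusted p under 0.05, which is little to read from 4 genes where 12.4% of all genes rose and 11.9% fell. Ddost was at 94.6, 87.7 and 91.8 CPM in unstimulated samples, at 95.9, 84.5 and 105 CPM with IFNα, at 157, 171 and 183 CPM with CpG and at 194, 177 and 164 CPM with CpG + IFNα. Rpn1 was at 53.7, 80.2 and 82.1 CPM in unstimulated samples, at 75.7, 51.1 and 62.6 CPM with IFNα, at 163, 148 and 162 CPM with CpG and at 117, 101 and 111 CPM with CpG + IFNα. Ddost was alike in both groups with CpG, while all Rpn1 samples of CpG + IFNα were between the unstimulated and the CpG samples. Ddost rose by 0.90 with CpG (SE 0.13, adjusted p = 1.66e-07) and 0.96 with CpG + IFNα (SE 0.12, adjusted p = 3.08e-08), and Rpn1 by 1.14 (SE 0.15, adjusted p = 3.25e-08) and 0.60 (SE 0.15, adjusted p = 0.000595, edgeR). Rpn2 rose by 0.75 and 0.70 and Ostc, the subunit that ties the complex to Sec61, by 0.78 and 0.58.

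Of the 5 ERAD genes, CpG raised 1 and lowered 2, and CpG + IFNα raised 1 and lowered 3, where 36.5% and 37.6% of all genes rose and 38.4% and 38.8% fell, so that the share lowered by CpG was near that of all genes. Herpud1, which encodes a membrane scaffold of the degradation complex and is a textbook UPR target, was at 176, 174 and 149 CPM in unstimulated samples, at 121, 142 and 129 CPM with IFNα, at 72.4, 62.7 and 74.4 CPM with CpG and at 54.5, 40.4 and 56.5 CPM with CpG + IFNα. Each stimulated group was below the unstimulated samples, and the 4 groups did not overlap. Its log2 fold change was -0.34 with IFNα (SE 0.13, adjusted p = 0.0679), -1.24 with CpG (SE 0.14, adjusted p = 1.03e-09) and -1.74 with CpG + IFNα (SE 0.14, adjusted p = 4.74e-13, edgeR). The IFNα call was lost when any of 4 samples was left out (adjusted p up to 0.206).

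Syvn1, the gene of the ubiquitin ligase HRD1, was at 130, 155 and 134 CPM in unstimulated samples, at 180, 209 and 191 CPM with IFNα, at 66.3, 59.9 and 63.4 CPM with CpG and at 63.8, 71.1 and 76.6 CPM with CpG + IFNα. The IFNα samples were the 3 highest and the 6 samples with CpG the lowest. It rose with IFNα (log2 fold change 0.48, SE 0.12, adjusted p = 0.00332) and fell with CpG (-1.14, SE 0.13, adjusted p = 2.96e-09) and CpG + IFNα (-0.98, SE 0.12, adjusted p = 2.3e-08, edgeR). Its exons overlap those of Mrpl49 on the opposite strand, and whether the counting used strand is not given in the sources used here.

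Sel1l, the gene of the partner that anchors HRD1, was at 46.4, 49.2 and 58.2 CPM in unstimulated samples, at 47.4, 49.9 and 34.3 CPM with IFNα, at 70.6, 76.3 and 73.4 CPM with CpG and at 55.1, 51.4 and 55.0 CPM with CpG + IFNα. The CpG samples stood above all others. It rose with CpG (log2 fold change 0.51, SE 0.16, adjusted p = 0.00453, edgeR), while Syvn1 fell there. Derl1, which encodes a membrane protein of the channel through which chains leave the ER, was at 95.5, 80.2 and 82.9 CPM in unstimulated samples, at 98.9, 98.5 and 115 CPM with IFNα, at 103, 86.2 and 88.9 CPM with CpG and at 123, 121 and 125 CPM with CpG + IFNα. The CpG + IFNα samples were the 3 highest of the 12, and Derl1 rose by 0.51 against unstimulated cells (SE 0.13, adjusted p = 0.000594). Edem1, the gene of a lectin-like protein that marks chains for removal, fell by 0.33 with CpG + IFNα (adjusted p = 0.0571), a call that was lost when any of 3 samples was left out (adjusted p up to 0.266).

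Of the COPII coat, which buds cargo vesicles from the ER, Sec23b lay between 43.4 and 61.3 CPM in all samples and likewise passed in 0 of 5 comparisons, by edgeR, by DESeq2 and unadjusted. Sec24d was too low for the filter, with UMI counts of 2, 6 and 5 in unstimulated samples, 3, 3 and 3 with IFNα, 0, 0 and 2 with CpG and 0, 0 and 0 with CpG + IFNα. A count of 0 allows up to 3 counts, which is between 1.03 and 1.59 CPM in the samples of CpG + IFNα. Without the filter its adjusted p was 0.00463 for CpG and 2.53e-05 for CpG + IFNα against unstimulated cells (edgeR).

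**Figure D4:**
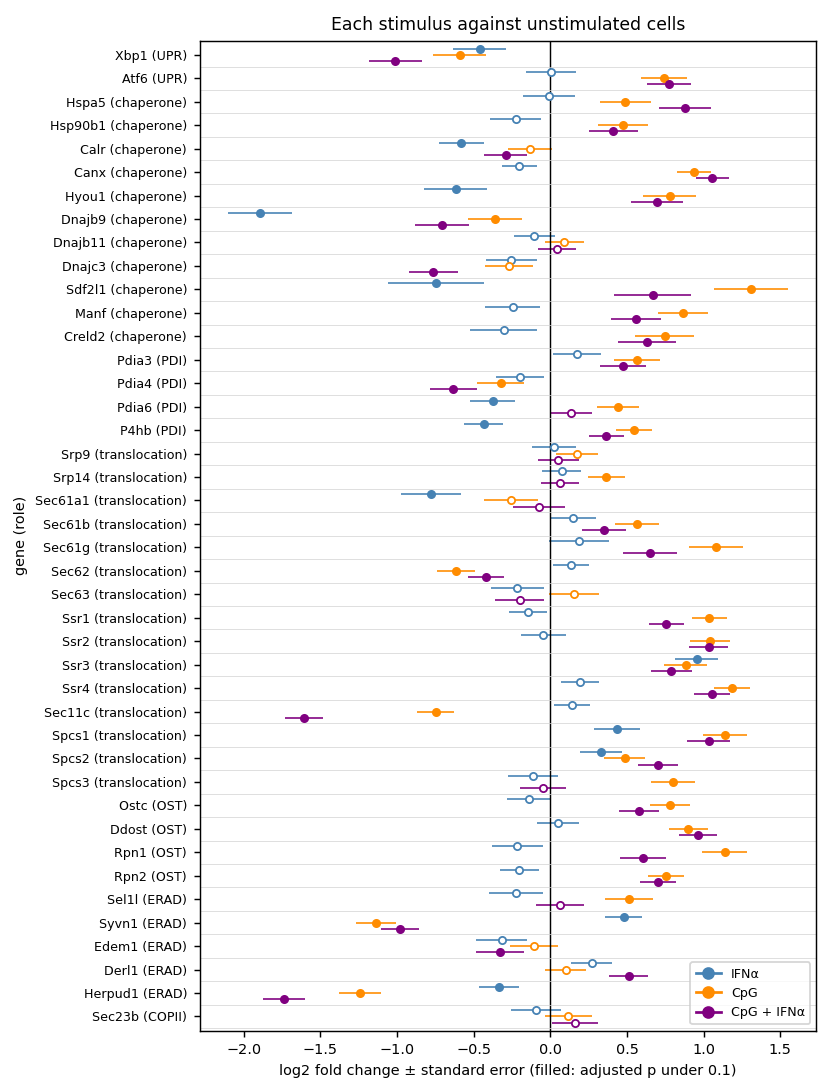
Log2 fold change of the 42 tested members against unstimulated cells for each of the 3 stimuli, with an error bar of 1 standard error and filled points where the adjusted p was under 0.1. Most points of CpG and CpG + IFNα lie right of 0, and Dnajb9 with IFNα lies farthest left (-1.89).

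What IFNα changed in the presence of CpG was asked by comparing CpG + IFNα with CpG. The 10 members that fell were Sec11c, Spcs3, Rpn1, Herpud1, Sel1l, Sdf2l1, Dnajc3, Sec61g, Ssr1 and Srp14, and Derl1 was the 1 that rose. CpG against unstimulated cells had already lowered Sec11c and Herpud1, Dnajc3 had not passed there (-0.27, adjusted p = 0.127), and the other 7 had risen with CpG. By role, those that fell were 5 of the 15 translocation genes, 2 of 11 chaperones, 1 of 4 oligosaccharyltransferase subunits and 2 of 5 ERAD genes, where 8.83% of all genes fell. The steepest falls were those of 2 signal peptidase genes, Sec11c (log2 fold change -0.86, SE 0.13, adjusted p = 4.08e-06) and Spcs3 (-0.85, SE 0.13, adjusted p = 9.27e-06, edgeR), in both of which the 3 samples of each group were apart. Rpn1 fell by 0.53 (SE 0.13, adjusted p = 0.0034), and Derl1 rose by 0.41 (SE 0.12, adjusted p = 0.017), likewise without overlap. These 4 calls held whichever sample was left out.

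The other 7 falls were each lost when some single sample was left out. Herpud1 fell by 0.50 (SE 0.14, adjusted p = 0.0192), Dnajc3 by 0.49 (SE 0.15, adjusted p = 0.032), Sdf2l1 by 0.64 (SE 0.20, adjusted p = 0.0307) and Sel1l by 0.45 (SE 0.14, adjusted p = 0.0307, edgeR). Of these, Sdf2l1 overlapped between the groups. The calls of Herpud1, Dnajc3 and Sdf2l1 were lost without CpG sample 3 or CpG + IFNα sample 2 (adjusted p up to 0.218, 0.278 and 0.314), and that of Sel1l without the latter (adjusted p = 0.13). Sec61g (-0.43, adjusted p = 0.0575), Srp14 (-0.30, adjusted p = 0.0818) and Ssr1 (-0.28, adjusted p = 0.0812) were lost when any of 3, 6 and 5 samples were left out. Without CpG + IFNα sample 2, which was the deepest of the 12 with 2923865 counts, 3 members fell in all, and without CpG sample 3 there were 6.

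**Figure D5:**
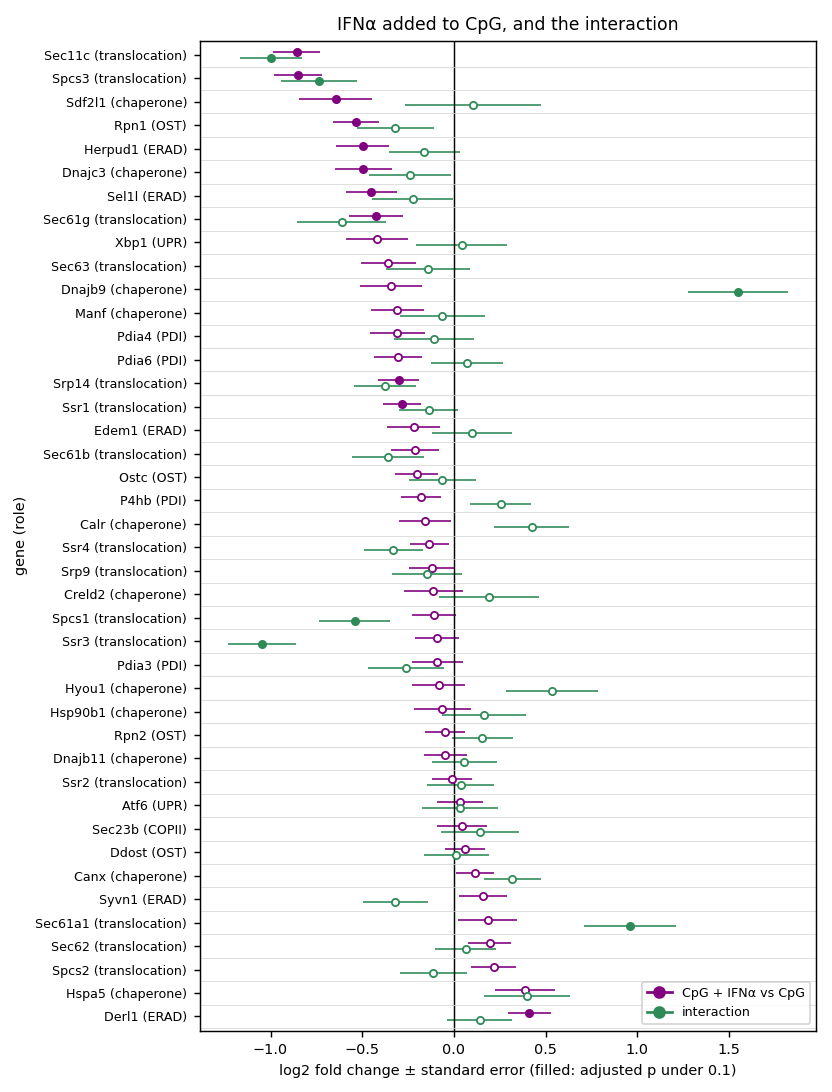
Log2 fold change of the 42 tested members between CpG + IFNα and CpG, sorted by size, beside the interaction (what IFNα did on top of CpG minus what it did alone), with an error bar of 1 standard error and filled points where the adjusted p was under 0.1. Sec11c and Spcs3 are at the low end of both, and Dnajb9 has the highest interaction (1.55).

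Whether IFNα acted alike with and without CpG was tested as an interaction, in which the log2 fold change of IFNα against unstimulated cells was subtracted from that of CpG + IFNα against CpG. It passed in 2 members upward and 4 downward of 42 (5.84% and 7.58% of all genes). The effect of IFNα without CpG was read against unstimulated cells, so that culture cannot be told apart from it. Dnajb9 had the highest value (1.55, SE 0.27, adjusted p = 0.000201), since IFNα alone took it from a mean of 117 to 31.8 CPM while in the presence of CpG the means were 91.7 CPM without and 72.3 CPM with IFNα, a difference that did not pass (-0.34, adjusted p = 0.22). Sec61a1 (0.96, SE 0.25, adjusted p = 0.0123) had the same form, with a fall by IFNα alone and 0.18 with CpG. Ssr3 (-1.05, SE 0.19, adjusted p = 0.000203) and Spcs1 (-0.54, SE 0.19, adjusted p = 0.074) were raised by IFNα alone but not in the presence of CpG, where the values were -0.09 and -0.11. Sec11c (-0.998, SE 0.17, adjusted p = 0.000137) and Spcs3 (-0.74, SE 0.21, adjusted p = 0.0208, edgeR) were lowered by IFNα in the presence of CpG and had values of 0.14 and -0.11 without it. The call of Spcs3 was lost without unstimulated sample 3 (-0.61, adjusted p = 0.11) and that of Spcs1 when any of 6 samples was left out (adjusted p up to 0.257). Without IFNα sample 1, 4 members passed upward, and without unstimulated sample 3, 2 passed downward. For Hspa5 the interaction was 0.40 (SE 0.24), which did not pass (adjusted p = 0.33) except without IFNα sample 1 (0.65, adjusted p = 0.0574).

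The roles also differed in how closely replicates lay together. The median over genes of the coefficient of variation within groups was 16.6% for the 11 chaperones and 13.997% for the 4 disulfide isomerases, against 8.16% for the 15 translocation genes and 9.10% for the 4 oligosaccharyltransferase subunits. Over 4509 genes of any kind with levels in the range of the members it was 11.4%. The widest were Sdf2l1 (26.0%), Hsp90b1 (20.5%) and Hspa5 (20.2%). Over all 42 members the lowest sample of a group was most often CpG sample 2 (24 members), CpG + IFNα sample 2 (26), IFNα sample 2 (28) and unstimulated sample 1 (26), and among the 11 chaperones these were lowest in 10, 8, 7 and 8. These are descriptions with no test.

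Beyond the members, a list of 150 other genes of the same pathway and of plasma cells had 146 in the table and 136 tested. CpG raised 66 and lowered 38 (36.5% and 38.4% of all genes), CpG + IFNα raised 69 and lowered 41 against unstimulated cells (37.6% and 38.8% of all genes), and IFNα alone raised 14 and lowered 15 (12.4% and 11.9% of all genes), which is near the shares over all genes. With CpG, 12 rose and 2 fell of 19 genes of targeting and translocation, 12 rose and 4 fell of 18 of glycosylation, 14 rose and 4 fell of 23 of COPII and cargo receptors, and 7 rose and 8 fell of 18 of folding and disulfide formation, the last of which is also near the shares over all genes. Of 17 genes of ER-associated degradation 4 rose and 4 fell, and of 16 of COPI and retrieval 6 rose and 5 fell. Of 18 genes of UPR and integrated stress signalling 9 rose and 6 fell, and of 7 plasma cell genes 2 rose and 5 fell. For comparison, 36.5% of all genes rose and 38.4% fell. Tram1, which encodes a membrane protein beside Sec61, was at 301, 320 and 293 CPM with CpG and at 160, 155 and 160 CPM with CpG + IFNα, a fall of 0.95 (SE 0.11, adjusted p = 3.73e-08, edgeR). Mzb1, the gene of a B cell partner of GRP94, was at 479, 510 and 506 CPM with CpG and at 245, 244 and 251 CPM with CpG + IFNα, a fall of 1.01 (SE 0.11, adjusted p = 1.97e-08). In both the groups were well apart. Mzb1 had means of 265 CPM in unstimulated samples and 460 CPM with IFNα alone. That rise was 0.79 (SE 0.12, adjusted p = 3.98e-06, edgeR). Tram1 had means of 272 CPM in unstimulated samples and 257 CPM with IFNα alone. Over the whole list, however, CpG + IFNα against CpG raised 13 and lowered 6 (6.54% and 8.83% of all genes), and of 18 genes of UPR and integrated stress signalling it raised 8 (5 by DESeq2) and lowered 0 (0 also by DESeq2 and at an unadjusted p under 0.05). Among these, Atf4, the gene of a transcription factor of the integrated stress response, was at 629, 594 and 586 CPM with CpG and at 841, 861 and 777 CPM with CpG + IFNα, a rise of 0.46 (SE 0.10, adjusted p = 0.00197). Atf3, the gene of a stress-induced transcription factor, was at 33.8, 26.4 and 37.9 CPM with CpG and at 82.9, 84.2 and 80.7 CPM with CpG + IFNα, a rise of 1.32 (SE 0.29, adjusted p = 0.00152, edgeR) that did not pass by DESeq2 (adjusted p = 0.283). The oxidase gene Ero1lb had the strongest fall of the folding list with CpG (log2 fold change -3.11, SE 0.21, adjusted p = 1.97e-14), and Kdelr2, which encodes a receptor that returns escaped chaperones to the ER, rose by 1.60 (SE 0.13, adjusted p = 1.49e-12). Ppp1r15a, of the UPR and integrated stress list, had a mean of 472 CPM in unstimulated samples. Its means were 33.0 CPM with IFNα, 40.7 CPM with CpG and 61.2 CPM with CpG + IFNα. Stimulation and culture cannot be told apart in these differences.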

How the data were processed

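The authors deposited a table of UMI counts per gene for the 12 samples, without normalization, from a 3′-end bulk barcoding protocol (BRB sequencing). Per the submitters' processing notes and the study's methods, they extracted barcodes with UMI-tools (1.1.2), trimmed with Trim Galore (0.6.7), mapped to GRCm38 with HISAT2 (2.2.1), assigned reads with featureCounts (2.0.1) and counted unique UMIs, so that PCR copies of a molecule count once. The annotation release is not given in the sources used here. All 22561 gene identifiers are in GENCODE M21, which gave names and positions.

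The counts were tested with edgeR (4.0.16) in R (4.3.3): TMM factors, filterByExpr by group, and glmQLFit and glmQLFTest in 1 fit of all 12 samples without a replicate block (9431 genes, 8 residual degrees of freedom), and the code was tested on simulated data. Benjamini-Hochberg adjustment ran over all genes tested. DESeq2 (1.42.0), other scalings and filters, a replicate block, equal depth and each sample left out were the alternatives.

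Members and lists were chosen with earlier results of these data known, so that no list was tested as a set. Per-sample values are given for Xbp1, Ern1, Atf6 and Hspa5, for up to 4 members of smallest adjusted p in each direction against unstimulated cells, and for up to 8 in the other comparisons. Of the other pathway genes, the named ones were among the 2 of smallest adjusted p in their sublist. Clgn, Hm13, Ern2 and Tnfrsf17 of that list, and some markers, were not analysed here. Protein sequences were not used here.

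The samples held between 922450 and 2923865 counts, and a limit of 3 counts covers counting error only. In all 12 pairs of replicates the counts differed beyond sampling error, with a chi-square between 2.02 and 7.00 times its degrees of freedom, so none was a copy of another. Same-numbered samples of different groups had correlations of their deviations between -0.0651 and 0.205 over 18 pairs. The labels do not say what a number marks, so the samples were not treated as paired. However, 10 of 12 samples had their highest mean correlation with same-numbered samples of other groups. Erythroid markers also had the same order by number in each group. Results with replicate number as a block are given below.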

Additional observations from a re-analysis of the deposited data

Results flagged for a closer look

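In 6 members the effect of IFNα in the presence of CpG differed from its effect alone by the test of that difference (edgeR, all 12 samples). These are 2 upward and 4 downward calls of 42, where 5.84% and 7.58% of all genes passed, so that the number of members is near that over all genes. The differences, as log2 values, were 1.55 for Dnajb9 (adjusted p = 0.000201) and 0.96 for Sec61a1 (adjusted p = 0.0123), which IFNα alone lowered, and -1.05 for Ssr3 (adjusted p = 0.000203) and -0.54 for Spcs1 (adjusted p = 0.074), which IFNα alone raised. They were -0.998 for Sec11c (adjusted p = 0.000137) and -0.74 for Spcs3 (adjusted p = 0.0208), which IFNα lowered in cells with CpG. Of the 4 downward calls, those of Sec11c and Ssr3 held whichever sample was left out, as did both upward calls. The effect of IFNα alone was read against unstimulated cells, so that it cannot be told apart from an effect of culture.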

How the results depend on the processing

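CpG raised more members than it lowered, and so did CpG + IFNα against unstimulated cells, under every alternative run, while the counts for IFNα were less stable. With a fold change over 2 required as well, 0 members rose and 1 fell with IFNα, 7 and 2 with CpG, 4 and 3 with CpG + IFNα, 0 and 0 between CpG + IFNα and CpG, and 1 and 1 in the interaction. IFNα raised 2 members with scaling by library size only and 2 at equal depth, and lowered 5 by DESeq2 and 5 at an adjusted p under 0.05. Between CpG + IFNα and CpG, 2 members rose without rRNA and mitochondrial genes, 2 without a filter on low counts and 2 when only those groups entered the fit, and 6 fell without the filter, 4 by DESeq2 and 5 at equal depth. The cause of these shifts was not tested. With replicate number as a block, up and down counts were 4 and 9 with IFNα, 26 and 8 with CpG, 23 and 10 with CpG + IFNα, 2 and 14 between CpG + IFNα and CpG, and 3 and 5 in the interaction. The block also brought the differences of Hspa5 (0.42, adjusted p = 0.0142) and Xbp1 (-0.40, adjusted p = 0.0659) between CpG + IFNα and CpG past the threshold and kept all 96 calls of members, and its counts above include further members that did not pass without it. In the data, 10 of 12 samples had their highest mean correlation with the samples of other groups that shared their number. This is a hint from the data and not from the design. Leaving out single samples, IFNα raised 2 to 4 and lowered 5 to 9, CpG 24 to 26 and 5 to 7, CpG + IFNα 21 to 23 and 8 to 10 against unstimulated cells and 1 to 2 and 3 to 11 against CpG, and the interaction passed in 2 to 4 and 2 to 6. The 5 falls with IFNα came without unstimulated sample 3 or IFNα sample 2, and the 3 against CpG without CpG + IFNα sample 2. The log2 fold change of Dnajb9 with CpG lay between -0.58 and 0.0575, and without unstimulated sample 1 its sign changed. Of 2171 repeats of 99 single-member results (the 96 calls, and 3 of Xbp1 and Hspa5 that did not pass), 1939 kept the call. Without rRNA and mitochondrial genes the members' share was 0.644% in unstimulated samples and 0.575% with IFNα.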
